A study of Mus musculus with 6 samples.

Results

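The 4 genes described here are the mouse metallothionein genes Mt1 and Mt2, Mtf1, which encodes the zinc-sensing transcription factor MTF-1, and Slc30a1, which encodes the zinc exporter ZnT1. Probes were taken by gene symbol, and the arrays held 6 annotated probes for them among the 20308 probes and 10585 named genes tested, out of 45281 probes on each array. Among the tested probes Mt1, Mt2 and Slc30a1 had 1 each and Mtf1 had 3. Probes undetected on every array carried no gene name here, so the arrays may hold further probes of the 4 genes. The cells were 3T3-CrT fibroblasts, a mouse 3T3 Tet Off line stably transfected with a tagged rabbit cDNA of the creatine (Cr) transporter CrT, which both groups carried. One group of 3 replicate samples stayed untreated and the other group of 3 received 5 mM creatine monohydrate in growth medium for 3 h. Each sample gave 1 array, a 1-colour Illumina Mouse WG-6 v2 BeadChip, and the comparison was part of a search for genes that respond to saturating Cr. The labels name 6-well plates but do not say how far apart the replicates were grown. A p-value here therefore reflects only the spread among these samples of a single transfected line, which may be technical.

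Metallothioneins are small cysteine-rich proteins that bind zinc, copper and cadmium and buffer free zinc inside the cell. When free zinc rises, MTF-1 enters the nucleus, binds metal response elements in the promoters of Mt1, Mt2 and Slc30a1 and raises their transcription. Zinc, cadmium, glucocorticoids and oxidants are known inducers of Mt1 and Mt2, and induction is visible within hours in most cultured cells. The transcript of Mtf1 itself changes little with zinc, since the factor is controlled by zinc binding.

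The promoters of the 3 targets are shown because they hold the letters that MTF-1 reads. The metal response element was searched as TGCACNC and TGCGCNC on both strands, where N is any base, in the RefSeq windows of 300 bases that run from 250 bases before to 50 bases after each annotated start (assembly GRCm38.p6). All 4 genes had a window, and capitals mark the matches. Mt1 (chr8:94178839-94179138, + strand) held 3 matches, all in forward orientation, beginning at positions -23, 2 and 20 relative to the annotated start. Mt2 (chr8:94172368-94172667, + strand) held 4, 2 in each orientation. Slc30a1 (chr1:191906531-191906830, + strand) held 2, both in reverse orientation, and the window of Mtf1 held 0. At least 1 match was present in 25.7% of all 32817 such windows, at least 2 in 7.12%, at least 3 in 1.97% and at least 4 in 0.518%. Mt2 and Mt1 are neighbours on chromosome 8, with 5315 bases between their annotated gene bounds. The bounds of Mt1 and Slc30a1 begin upstream of the start used for their windows. Positions and counts rest on the annotated starts, and whether these cells use those starts was not tested. Bases outside a window were not searched, so the counts need not hold every element of a gene. A match describes the letters of a window and is not a measured binding site.
Mt1: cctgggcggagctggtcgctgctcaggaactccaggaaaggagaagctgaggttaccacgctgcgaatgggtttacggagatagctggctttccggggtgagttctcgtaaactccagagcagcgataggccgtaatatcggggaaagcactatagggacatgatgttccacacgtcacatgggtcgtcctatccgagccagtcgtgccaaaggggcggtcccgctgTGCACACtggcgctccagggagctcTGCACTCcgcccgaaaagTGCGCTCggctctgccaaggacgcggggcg
Mt2: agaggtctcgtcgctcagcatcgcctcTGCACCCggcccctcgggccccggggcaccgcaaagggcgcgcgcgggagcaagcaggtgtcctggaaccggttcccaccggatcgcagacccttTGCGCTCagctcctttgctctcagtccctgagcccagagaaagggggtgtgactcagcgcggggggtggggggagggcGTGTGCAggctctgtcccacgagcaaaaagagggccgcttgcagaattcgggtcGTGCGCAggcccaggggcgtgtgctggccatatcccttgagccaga
Slc30a1: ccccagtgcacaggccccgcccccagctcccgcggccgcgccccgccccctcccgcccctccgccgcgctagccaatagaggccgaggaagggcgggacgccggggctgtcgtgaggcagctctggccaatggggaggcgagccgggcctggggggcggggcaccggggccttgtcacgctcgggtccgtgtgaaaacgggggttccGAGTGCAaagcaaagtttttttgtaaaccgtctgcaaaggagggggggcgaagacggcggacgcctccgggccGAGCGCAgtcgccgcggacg

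No change of Mt1, Mtf1 or Slc30a1 was detected after 3 h in 5 mM Cr, and Mt2 lay too close to the detection limit to be compared. Of the 5 probes detected in both groups, 0 passed limma's test at an adjusted threshold of 0.05 (0 also unadjusted). Among all tested probes 0.0295% passed the adjusted threshold, 0.00492% as higher and 0.0246% as lower with Cr, and 5.05% passed the unadjusted one. The adjusted p of the 5 lay between 0.986 and 0.987. Their log2 fold change, Cr minus untreated, was below 0 for 4 and above 0 for 1, and each of the 5 intervals held 0. In RNA from whole cultures, fewer expressing cells and less RNA per cell cannot be told apart. Signals are in arbitrary units with no background subtracted, a log2 value is on the generalized log2 scale of the vsn model, and a probe counted as detected at a detection p of 0.05 or less.

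Mt1, the metallothionein gene with a bright probe, was detected on all 6 arrays. Its signal on probe ILMN_2596522 was 2945, 2784 and 2514 in the untreated samples and 2530, 2651 and 2854 in the Cr samples. The 2 ranges overlapped almost fully, and the means were 2748 ± 218 (SD, n = 3) untreated and 2678 ± 164 (SD, n = 3) with Cr. After normalization the log2 values were 11.34, 11.39 and 11.51 untreated and 11.31, 11.32 and 11.39 with Cr. The order of the untreated samples turned with normalization, since replicate 3, the lowest by signal, had the largest fitted scale (1.19 times the mean of the arrays) and became the highest. The log2 fold change was -0.07 (standard error, SE, 0.08; limma adjusted p = 0.987). As a share of the untreated level this was 95.0%, and its 95% confidence interval ran from 84.1 to 107.3%. A change at least as large in size was seen for 42.8% of all tested probes. A two-sided exact permutation test gave p = 0.3, where 3 samples against 3 cannot go below 0.1. Without untreated replicate 3 the log2 fold change was -0.02, and without untreated replicate 1, the array that stood farthest from the others, it was -0.11.

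Mt2, the neighbouring metallothionein gene, lay at the detection limit. Its signal on probe ILMN_1219154 was 165, 173 and 138 in the untreated samples and 185, 152 and 185 in the Cr samples, and the lowest signal that counted as detected was between 169 and 190, depending on the array. The probe was detected in Cr replicates 1 and 3 and in no untreated sample, so it passed the detection filter through the Cr group alone. The means were 159 ± 18.3 (SD, n = 3) untreated and 174 ± 19.3 (SD, n = 3) with Cr, and the groups overlapped, because Cr replicate 2 was dimmer than untreated replicates 1 and 2. No fold is given, since the untreated level is only bounded by the detection limit and the bound fell under 1. No p is given either, since detection in the Cr group alone brought the probe into the test. The sequence of the probe was not used here, so where it lies in the Mt2 transcript was not tested.

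Mtf1, the gene of the zinc sensor, was read by 3 probes that did not all go the same way. The log2 fold changes of ILMN_2544252 and ILMN_2690755 were below 0 and that of ILMN_2690756 was above. On the brightest, ILMN_2544252, detected on all 6 arrays, the signal was 747, 663 and 642 untreated and 625, 637 and 666 with Cr. By signal the groups overlapped, but after normalization the 3 Cr samples, at 9.18 to 9.22, lay just below the 3 untreated samples, at 9.22 to 9.44. Groups did not overlap for 10.7% of all tested probes. The log2 fold change was -0.12 (SE 0.08, limma adjusted p = 0.986). The Cr level was thus 92.1% of untreated, with an interval of 81.5 to 104.1%. The exact permutation test gave p = 0.1, the smallest the design allows. Without untreated replicate 3 this log2 fold change was -0.06.
The other 2 Mtf1 probes were dim. Probe ILMN_2690756 was detected on 5 of the 6 arrays, with signals of 190, 187 and 181 untreated and 212, 188 and 189 with Cr and a log2 fold change of 0.13 (SE 0.09, limma adjusted p = 0.986). Cr replicate 1 stood above the other samples, and without it the value was 0.03. Probe ILMN_2690755 was detected in 2 samples of each group, with signals of 192, 181 and 202 untreated and 170, 159 and 201 with Cr and a log2 fold change of -0.13 (SE 0.11, limma adjusted p = 0.986). Without untreated replicate 3 the latter was -0.03, without Cr replicate 2 it was -0.04, and without untreated replicate 2 or Cr replicate 3 it was -0.22. The dim probes had opposite signs, their groups overlapped, and with another background correction (neqc) both were larger, at 0.30 and -0.29.

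Slc30a1, which exports zinc across the plasma membrane, was detected on all 6 arrays by probe ILMN_1224883. Its signal was 497, 417 and 406 in the untreated samples and 399, 411 and 447 in the Cr samples. Untreated replicate 1 was the highest, and the other 5 samples lay within 399 to 447. The means were 440 ± 49.5 (SD, n = 3) untreated and 419 ± 24.7 (SD, n = 3) with Cr. The log2 fold change was -0.09 (SE 0.09, limma adjusted p = 0.986). The Cr level was 94.1% of untreated, with an interval of 82.9 to 106.8%, and the exact permutation test gave p = 0.4. Without untreated replicate 1 it was -0.05 and without untreated replicate 2 it was -0.16.

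**Figure D1:**
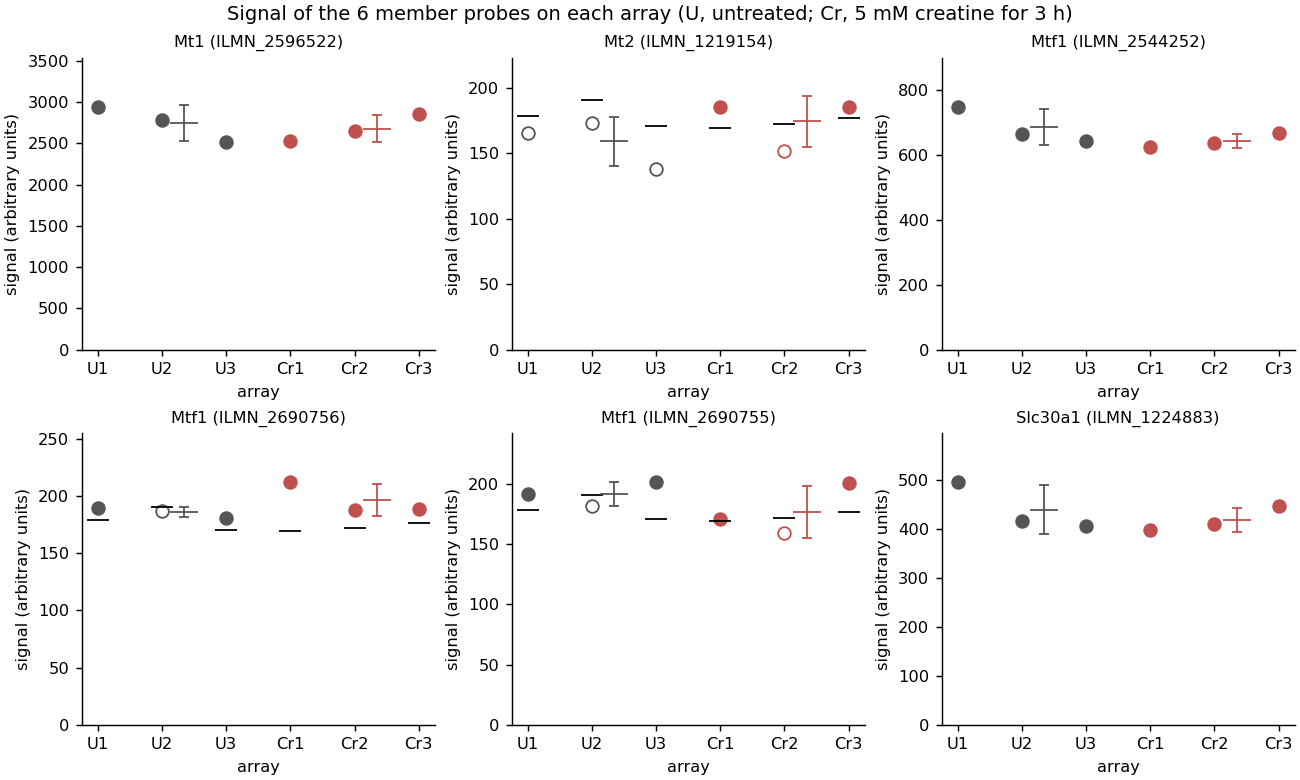
Signal in arbitrary units of each of the 6 probes on the 3 untreated (U) and 3 Cr arrays; filled points were detected and open points were not, bars give the mean ± SD (n = 3), and black dashes on the 3 dim probes mark the lowest detected signal of each array. The groups overlap in every panel, and Mt2 lies at 138 to 185, around the detection limit.

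The members were also compared array by array within the groups. The deviation of Mt1 from its group mean had the sign of that of Mtf1 probe ILMN_2690755 on 6 of 6 arrays and that of Mtf1 probe ILMN_2544252 and of Slc30a1 on 5 of 6 each. The third Mtf1 probe, ILMN_2690756, shared the sign of Mt1 on 3 of 6 arrays, and was below its group mean on Cr replicate 3, where Mt1 was above. Mt1 and Mt2, which share a locus and an inducer, went to the same side on 2 of 6 arrays only, with Mt2 near its detection limit. These values share the offset and the scale fitted to each array, whose part in the deviations was not tested. Deviations cancel out within a group, so the 6 signs are not independent, and no share over all probes was taken for these counts. By correlation with Mt1 over the 6 arrays, groups included, 12.5% of named probes ran as high as Slc30a1. For Mtf1 the shares were 2.55% (ILMN_2544252), 2.32% (ILMN_2690755, detected on 4 arrays) and 76.3% (ILMN_2690756).

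**Figure D2:**
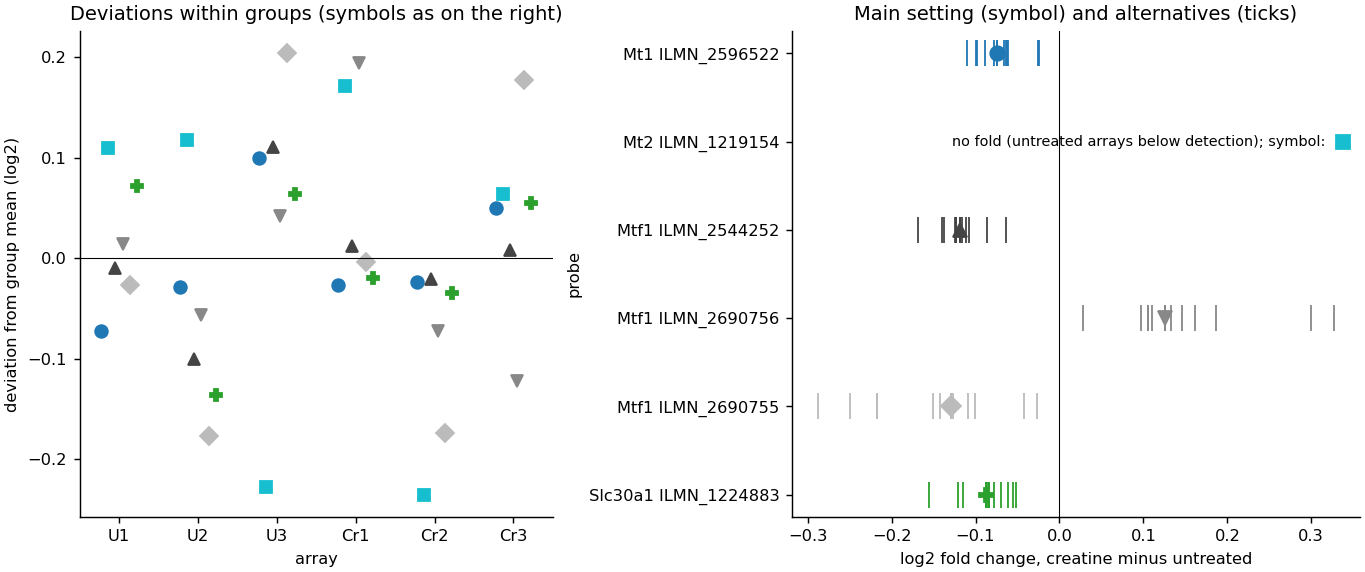
Left, the log2 deviation of each probe from its group mean on each array, with the same symbols as on the right; right, the log2 fold change, Cr minus untreated, in the main setting (symbol) and under each alternative (tick). Each of the 5 probes with a fold stays on its side of 0, Mt1 between -0.11 and -0.02, and none passes the test.

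Over the 6 arrays, the named genes whose normalized values ran closest to those of Mt1 were Armcx6 (Pearson's r = 0.991), Zfp330 (0.991), Olfr1260 (0.990), Wars2 (0.987) and Pebp4 (0.987). Of these only the probe of Zfp330, a zinc finger gene, was detected on all 6 arrays, and the other 4 were detected on 1 array each. Closest to Mt2 were Mettl21a (0.987), Rtkn2 (0.979), Klc1 (0.977), Rad50 (0.977) and Gli2 (0.975), with Mettl21a and Klc1 detected on all 6 arrays. These were the highest of 16924 correlations for each gene, over 6 arrays that share a normalization, and are given as a description. Mt2 was far from Mt1 on this measure, at r = -0.67. The correlations of Mt2 run over all 6 arrays, though its probe was detected on only 2, both in the Cr group. They thus take in the group difference for which no fold is given, and nothing is concluded from them.

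No other zinc transporter passed the test either. Here and below, a gene counts as measured if a probe named for it was among the tested probes. A gene not measured may have been undetected or may have had no probe. The genes listed as zinc exporters were those of the Slc30 family, which mostly move zinc out of the cytosol. Of these 10 genes 7 were measured, and of the 6 detected in both groups 0 passed the test (0 also at an unadjusted p of 0.05 or less). Over 1 probe per gene, 0.0756% of all 10585 genes passed the adjusted and 5.55% the unadjusted threshold, and the median of all genes was 0.0030. For these 6 exporters the median log2 fold change was -0.0071, with a range of -0.13 to 0.07. The lowest was Slc30a4, a transporter of intracellular vesicles, at -0.13 (SE 0.14, limma adjusted p = 0.987). The highest was Slc30a7, a transporter of the Golgi, at 0.07 (SE 0.09, limma adjusted p = 0.993), with its other probe at -0.11. Slc30a10 was detected on 2 Cr arrays and no untreated array, so that no fold can be given.

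Among the zinc importers of the Slc39 family, which bring zinc into the cytosol, 11 of 14 genes were measured, and of the 9 detected in both groups 0 passed the test. At an unadjusted p of 0.05 or less 1 was higher and none lower, beside 5.55% of all genes in both directions. These 9 had a median log2 fold change of 0.04 and a range of -0.07 to 0.25. The median over all 11 was also 0.04, and it rested on single samples, at -0.01 without untreated replicate 2 or Cr replicate 1 and 0.0060 without untreated replicate 3. Slc39a3, a plasma membrane importer, was the highest. Its signal was 217, 208 and 198 in the untreated samples and 233, 238 and 241 in the Cr samples, so that every Cr sample was above every untreated sample on a dim probe detected on all 6 arrays. Its log2 fold change was 0.25 (SE 0.08, limma unadjusted p = 0.00564 and adjusted p = 0.737). After normalization the groups of Slc39a3 did not overlap either, as for 10.7% of all tested probes.

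Other genes known as MTF-1 targets were 5 of 9 measured, with 0 past the test. At an unadjusted p of 0.05 or less 1 was lower, beside 5.55% of all genes in both directions. Slc39a10 was also counted among the importers, and Gclc among the stress genes. The median log2 fold change of the 5 was -0.07. It pools genes whatever the direction in which MTF-1 acts on them, so it gives no direction of MTF-1 activity. That median was 0.0080 without untreated replicate 1, -0.0046 without Cr replicate 2, -0.13 without untreated replicate 2 and -0.14 without Cr replicate 1. The importer gene Slc39a10, which MTF-1 represses in mouse cells, had signals of 252, 245 and 227 untreated and 253, 249 and 272 with Cr. Its log2 fold change was 0.12 (SE 0.08, limma unadjusted p = 0.137 and adjusted p = 0.986). After normalization its groups did not overlap, as for 10.7% of all tested probes. Slc39a10, Tsc22d3 and Srxn1 are named here after their values were seen. Ndrg1, a stress gene that hypoxia also induces, was at -0.24 on one probe and -0.23 on the other (log2, SE 0.10 each, limma adjusted p = 0.955 and 0.959). Mt3 and Mt4, the metallothioneins of brain and of squamous epithelium, had no probe among those tested.

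**Figure D3:**
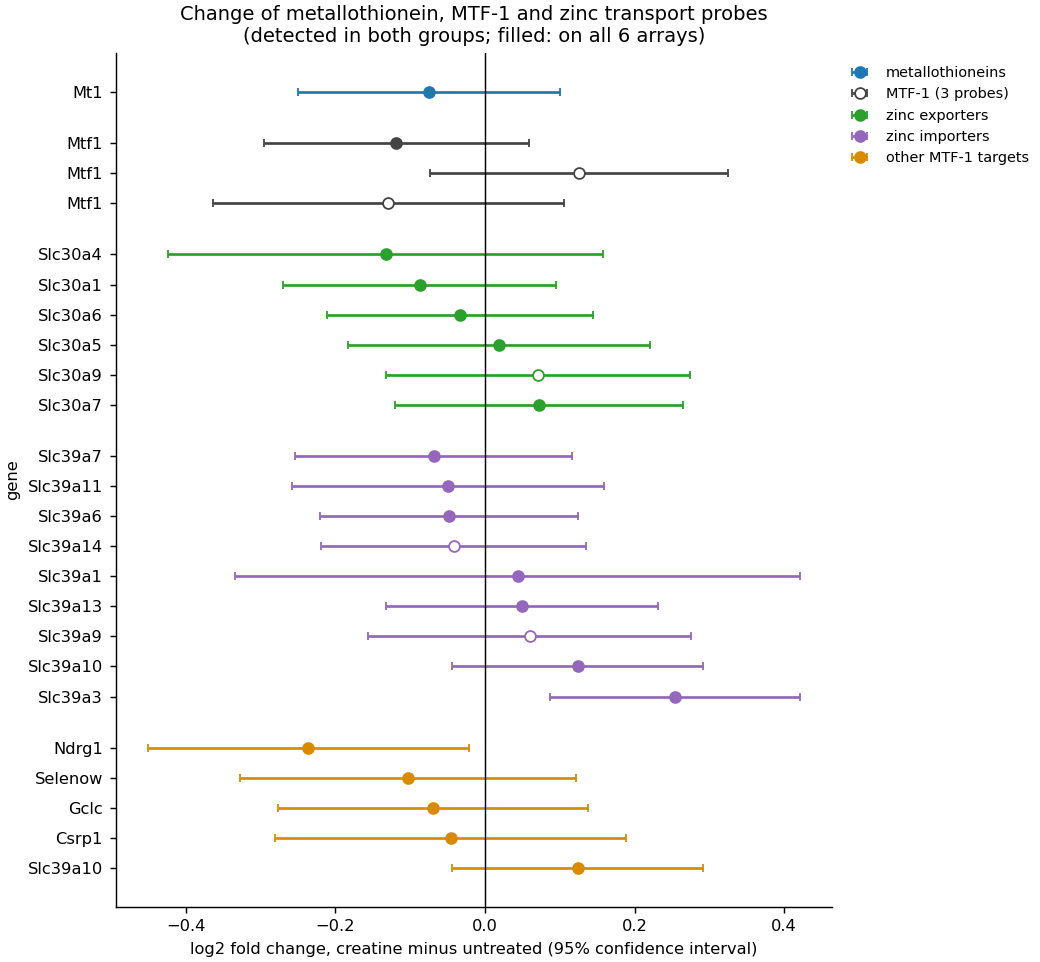
Log2 fold change, Cr minus untreated, with its 95% confidence interval for Mt1, the 3 Mtf1 probes and the zinc exporters, zinc importers and other MTF-1 targets detected in both groups (1 probe per gene, that of highest mean); filled points were detected on all 6 arrays. The intervals of Mt1, Mtf1 and every exporter hold 0, and those of Slc39a3 (0.25) and Ndrg1 (-0.24) do not, at adjusted p of 0.737 and 0.955.

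No measured gene of copper or iron handling passed the test. Of 12 copper genes 10 were measured and 0 passed the test, with a median log2 fold change of 0.0018. At an unadjusted p of 0.05 or less 1 was higher, beside 5.55% of all genes in both directions. That gene was Slc31a2, a copper transporter of endosomes, at 0.22 (SE 0.10, limma adjusted p = 0.962), and Ccs, the copper chaperone of Sod1, had 0.14 (SE 0.09, limma adjusted p = 0.986). Of 10 iron genes 9 were measured and 0 passed, also at an unadjusted p of 0.05 or less, with a median of 0.0049. The ferrireductase gene Steap3 had 0.14 (SE 0.11, limma adjusted p = 0.986) and Hfe had -0.08 (SE 0.08, limma adjusted p = 0.986). Both probes were near the detection limit. That of Steap3 was detected on 1 untreated and 3 Cr arrays, and that of Hfe on 1 array of each group. The other Steap3 probe was at 0.06 (SE 0.08).

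No stress gene of those that heavy metals induce alongside metallothioneins passed the test. All 12 were measured and 9 were detected in both groups, of which 0 passed. At an unadjusted p of 0.05 or less 3 of these 9 were lower (Hmox1, Atf3 and Srxn1) and none higher, beside 5.55% of all genes in both directions. Hmox1, the haem oxygenase gene that cadmium induces strongly, had signals of 1840, 1569 and 1231 untreated and 1219, 1285 and 1312 with Cr. By signal the groups overlapped, and after normalization every Cr sample was below every untreated sample. The log2 fold change of Hmox1 was -0.31 (SE 0.08, limma adjusted p = 0.55). Normalized values without overlap, in either direction, were seen for 10.7% of all tested probes. The transcription factor gene Atf3 had -0.23 (SE 0.08, limma adjusted p = 0.939). Among glucocorticoid receptor targets, listed because glucocorticoids induce metallothioneins too, 7 of 10 were measured and 0 passed, with 3 lower and 1 higher at an unadjusted p of 0.05 or less. The lowest was the EGF receptor inhibitor gene Errfi1 at -0.45 (SE 0.08, limma adjusted p = 0.087), followed by the kinase gene Sgk1 at -0.33 (SE 0.08, limma adjusted p = 0.434). The one higher, Tsc22d3, had 0.36 (SE 0.09, limma adjusted p = 0.463), with its other probes at 0.12 and -0.03. Errfi1 passed the test under 4 alternative settings, with an adjusted p of 0.0159 to 0.038, and Mt1 under none.

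The arrays as a whole were alike in probes detected and median signal, and less so in fitted scale, at 0.889 to 1.19 times their mean. Between 16396 and 17700 probes per array were detected, the median signals were 152 to 167, and Pearson's r between arrays over the tested probes, which are not independent replicates, was 0.993 to 0.997. Untreated replicate 1 had the lowest weight when limma estimated one for each array, 0.498 against 0.885 to 1.45. Of 12 fibroblast markers, listed to check the labelled cell type, 9 were measured and 8 of them detected on all 6 arrays, with Thy1, Postn and Dcn not among the tested probes. Markers of other types were measured for 3 of 6 epithelial, 1 of 6 macrophage, 1 of 6 endothelial, 3 of 6 skeletal muscle and 1 of 6 adipocyte genes, of which 2 epithelial ones, Krt8 and Krt19, were detected on all 6 arrays. The endogenous transporter gene, Slc6a8, gave a signal of 2753 ± 583 (SD, n = 3) untreated and 2774 ± 46.8 (SD, n = 3) with Cr, a log2 fold change of -0.0046 (limma adjusted p = 0.999), and whether its probe also reads the rabbit transcript was not tested.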

How the data were processed

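Values came from 6 Illumina Mouse WG-6 v2 arrays, 3 untreated and 3 given 5 mM Cr for 3 h, with groups and replicate numbers taken from the submitters' labels. The deposited export gives for each of 45281 probes an uncorrected signal intensity together with its detection p-value, which the authors exported from GenomeStudio. The authors' deposited processed values, on a generalized log2 scale, were made by background correction and vsn and served as an alternative. No genome build is given for the array in the sources used here, and coordinates are those of RefSeq.

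The vsn model (asinh with per-array offset and scale, trimmed at quantile 0.9, 7 rounds) was written out in R 4.3.3 and fitted to all probes. Detection (p of 0.05 or less) on 1 or more arrays kept 20308 probes for limma 3.58.1 (lmFit and eBayes, two-sided, no covariate) with Benjamini-Hochberg adjustment over all of them. Confidence intervals are moderated 95% intervals. A probe undetected throughout a group gives only a bound, taken against the lowest detected value, and bounds under 1 are left out. Counts for gene lists used the probe of highest mean of each of 10585 genes, and other single values the fit over probes. Plots used Python 3.11.15 and matplotlib 3.10.9. The fits were also run on simulated arrays, whose noise was drawn without regard to the brightness of a probe, and no result here rests on them.

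Probes were named from the platform annotation, which covered the tested probes, and symbols were checked through Entrez IDs. The members and lists were chosen with earlier results of these data known. The rule for named genes takes every member probe, genes of the zinc and MTF-1 lists with an unadjusted p of 0.05 or less or, failing that, the 2 of lowest p in each direction, the 2 of lowest p in each other list (all on 1 probe per gene), the 5 genes most like Mt1 and the 5 most like Mt2, and Slc6a8. Alternatives were other background and scaling methods, no filter or a stricter one, array weights, another variance model, a block on replicate number, each sample left out, and all probes of a listed gene.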

Additional observations from a re-analysis of the deposited data

How the results depend on the processing

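None of the 5 probes of Mt1, Mtf1 and Slc30a1 passed the threshold under any of the 15 alternatives in which it could be tested (14 for the 2 dim Mtf1 probes, which the filter on all 6 arrays removes), and none changed sign, where the filter, variance and block settings leave a fold change as it is by construction. The log2 fold change of Mt1 lay between -0.11 and -0.02, with an adjusted p of 0.848 to 1.0 from limma, that of Slc30a1 between -0.16 and -0.05, and that of the brightest Mtf1 probe between -0.17 and -0.06. The dim Mtf1 probes ranged from 0.03 to 0.33 and from -0.29 to -0.03. The number of all probes past the threshold, 6 in the main setting, was 0 with neqc (1145 at an unadjusted p of 0.05 or less) and with normexp and median scaling (1001 unadjusted), 12 with the authors' deposited values and with quantile normalization alone, 10 with no filter, 13 with a trended robust variance, 15 with array weights, and 0 to 9 with 1 sample left out (762 to 1494 unadjusted), and the cause was not tested. It was 9 without untreated replicate 1, 1 without Cr replicate 2 and 0 when any one of the other 4 samples was left out. Of the probes in the metal, stress and glucocorticoid lists, 0 passed in the main setting and 1, that of Errfi1, with the authors' values, quantile normalization, the robust variance or array weights. With the replicate number as a block 14 probes passed. Deviations of same-numbered samples correlated at 0.24, 0.31 and -0.03, and those of samples with different numbers at -0.35 to 0.15. Untreated replicate 3 did not correlate best with its own number. These values do not settle whether the numbers pair the samples, and the main fit took no pairing. With 3 samples per group, changes within the intervals given are not excluded, and the dim probes of Mt2 and Mtf1 lie near background. The intervals are not a detection limit, since larger changes can also miss the adjusted threshold. Errfi1 missed it in the main setting at a log2 fold change of -0.45 (limma adjusted p = 0.087).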
